A study of Sus scrofa with 92 samples.

Results

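The genes described here are 8 chemokines and endothelial adhesion molecules of the pig liver, CXCL8, CXCL2, CXCL10, CCL2, ICAM1, VCAM1, SELE and SELP. They were chosen by symbol, each being the row whose pig Ensembl identifier carries that name, and all 8 were found among the 25322 identifiers in the count table. All 8 also passed the filter on low counts in the fit of changes over time, which 13667 genes passed. The libraries are RNA-seq of flash-frozen liver biopsies from 23 male Yorkshire-Landrace pigs, all fasted overnight, of which 5 received a bolus of diluted corn syrup before anesthesia (carbohydrate prefed, CPF) and 18 did not (fasted, FS). Every pig was splenectomized and underwent a blunt chest injury, withdrawal of blood, a crush injury of the liver and then resuscitation. Each pig was biopsied at Baseline (B) and then at 2 hours (FR2), 8 hours (FR8) and 20 hours (FR20) of resuscitation. No uninjured animals were among the groups, so a change from Baseline carries the anesthesia, the surgery and the earlier biopsies along with the shock. According to the labels 3 FS and 2 CPF animals died and the other 18 lived.

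Chemokines are small secreted proteins that direct leukocytes along a gradient, and endothelial adhesion molecules hold those leukocytes to the vessel wall. P-selectin and E-selectin catch passing leukocytes so that they roll, chemokines presented on the endothelium then activate leukocyte integrins, and ICAM1 and VCAM1 bind those integrins so that the cells arrest and cross. In the liver hepatocytes, Kupffer cells, stellate cells and the endothelium can all release chemokines.

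Of 92 liver libraries, 88 were used. The FS Baseline libraries of animals 17, 19 and 21 were left out because they held 4, 899 and 5 counts of albumin, the main secreted protein of hepatocytes, while the used libraries held between 13202 and 168246 CPM of it (counts scaled to a common library total). The FR8 library of CPF animal 3 was left out with its 4388 counts. The used libraries carried 6877117 to 16613261 counts on genes, with a median of 12071958. The labels therefore leave 15 FS libraries at B and 18 at each later time, and 5 CPF libraries at each time except FR8, which has 4.

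Some animals ran against their time labels. Over the 13667 genes tested, the change from FR2 to FR8 in each FS animal was correlated with the mean change of the other FS animals. The coefficient lay between 0.31 and 0.73 in 14 animals and was -0.54, -0.26, -0.16 and -0.33 in animals 10, 17, 19 and 21. In animal 10 the changes from B also ran against the others, with -0.25 at FR2 and -0.40 at FR8. Animals 17, 19 and 21 are those whose Baseline libraries nearly lacked albumin. The labels were kept as deposited, and the changes that passed in FS animals are also given without these 4 animals, an alternative chosen after seeing the data. These animals were picked by their change from FR2 to FR8, so leaving them out favours that step over all genes. Animal 10 also ran against the others from B, so its removal favours the changes from B as well. In FS animals the share of all genes that passed went from 41.4% to 50.3% at FR2 and from 33.8% to 44.1% at FR20. At FR2 in CPF animals it went from 3.41% to 10.8%. Values without these animals are therefore no independent check at any step. Levels, marker sums and counts of animals are those of all used libraries. In CPF animals all coefficients were above 0 except that of animal 13 from B to FR20, which was -0.06.

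Levels are given as CPM with library totals scaled by the trimmed mean of M values (TMM). CXCL10, CCL2, ICAM1, VCAM1 and SELP were above the floor of 3 counts in all 88 libraries. CXCL8 was at or under it in 42 libraries (47.7%), SELE in 45 (51.1%) and CXCL2 in 16 (18.2%), so for these genes a few reads set the value in many animals. A gene is said to have risen or fallen where its Benjamini-Hochberg adjusted p over all genes tested, from edgeR's quasi-likelihood test, was under 0.05, and it is called where the log2 fold change was also at least 1 in size. Errors of log2 fold changes are standard errors (SE). Comparisons with the same Baseline libraries share those controls. Values of CPF animals are listed in the order of animals 3, 7, 8, 13 and 18, and at FR8 in the order of animals 7, 8, 13 and 18.

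**Figure D1:**
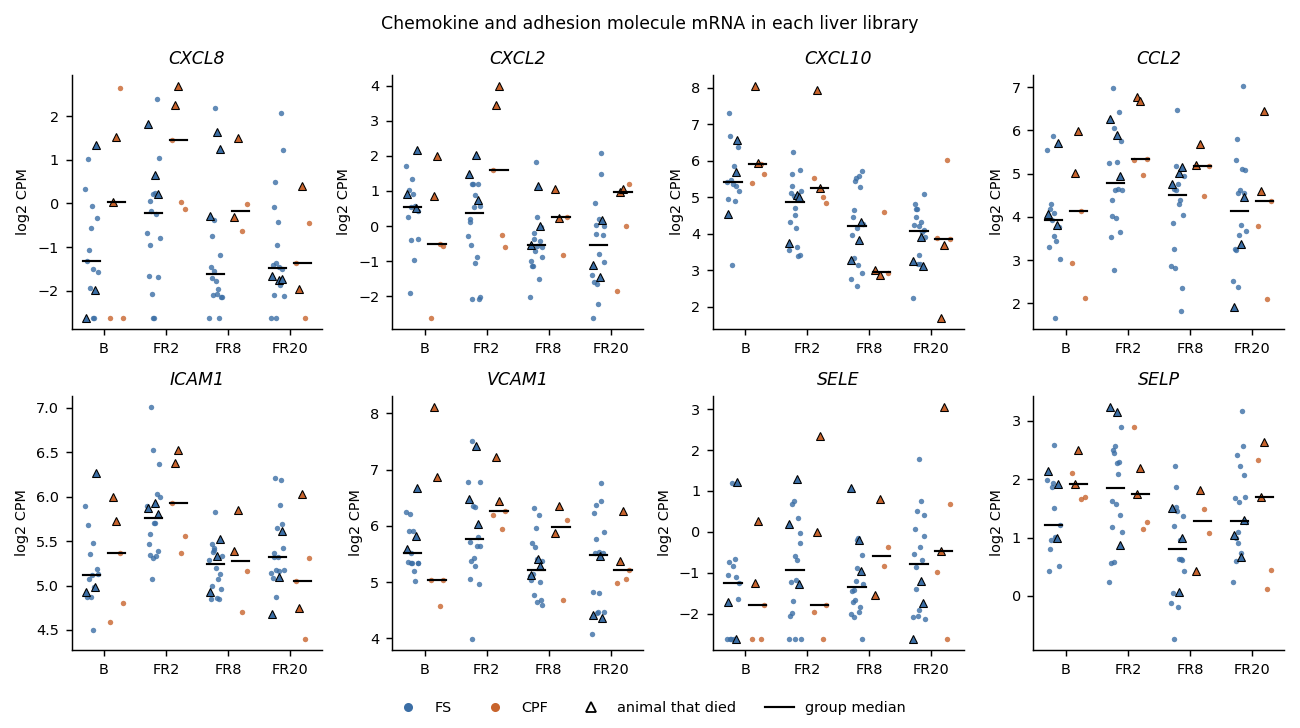
Level of each gene (log2 CPM, vertical axis) in each of the 88 libraries by sampling time (horizontal axis), with FS and CPF animals in separate colours and the group median as a bar. CXCL10 medians of FS animals step down from 43.0 CPM at B to 16.6 CPM at FR20, ICAM1 is highest at FR2, and CXCL8 and SELE sit near the floor.

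CXCL10, an interferon-inducible chemokine that attracts activated T cells and NK cells, fell after Baseline in both feeding groups and was the member with the largest number of calls. In FS animals it measured 8.70 CPM at the lowest, 43.0 at the median and 159 at the highest at B (n = 15), and 10.3, 29.0 and 75.7 at FR2 (n = 18). At FR8 the lowest, median and highest values were 5.73, 18.3 and 52.3 CPM, and at FR20 they were 4.59, 16.6 and 33.9. All of these ranges overlapped, but the 18 values at FR20 all lay under the Baseline median. Within animals the level was lower than at B in 13 of 15 at FR2, 13 of 15 at FR8 and 14 of 15 at FR20.

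The fitted change of CXCL10 in FS animals was -1.0 ± 0.30 on the log2 scale at FR2 (edgeR adjusted p = 0.00541), just short of a call before rounding. At FR8 it was -1.50 ± 0.30 (adjusted p = 1.32e-04), a 2.82-fold lower level. At FR20 it was -1.84 ± 0.30 (adjusted p = 4.36e-06), a 3.57-fold lower level. The step from FR2 to FR8 missed the threshold (-0.50 ± 0.28, adjusted p = 0.204), as did that from FR8 to FR20 (-0.34 ± 0.28, adjusted p = 0.538). Animal 10 went the other way, with 8.70 CPM at B and 75.7 CPM at FR2, and animals 17, 19 and 21 went from 12.2, 10.3 and 10.5 CPM at FR2 to 47.8, 38.9 and 52.3 CPM at FR8. Without these 4 animals the changes from B were -0.94 ± 0.26, -1.88 ± 0.27 and -1.94 ± 0.27, all still past the threshold. The step from FR2 to FR8, by which these animals were picked, then passed as well (-0.94 ± 0.27). With the 3 Baseline libraries that nearly lack albumin kept, the change at FR2 was -0.70 and no longer passed.

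In the CPF animals CXCL10 measured 41.8, 264, 61.7, 60.1 and 49.5 CPM at B and 45.9, 247, 37.7, 31.9 and 28.8 CPM at FR2. At FR8 the 4 animals held 7.94, 7.12, 24.0 and 7.40 CPM. At FR20 the 5 animals held 14.7, 3.10, 12.8, 65.1 and 14.5 CPM. Every FR8 value lay below every value at B and at FR2. No other member separated in this way across time, and the share of all genes that did was not computed. Animal 7 was far above the rest at B and FR2 and lowest at FR20, while animal 13 was highest at FR8 and FR20.

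CXCL10 was the 1 member of 8 that passed in CPF animals at FR8, with a change from B of -2.98 ± 0.58 (edgeR adjusted p = 0.00311), where 13.3% of all genes passed and 8.83% were called. The step from FR2 to FR8 was -2.62 ± 0.58 (adjusted p = 0.0139), where 7.21% of all genes passed and 4.92% were called. That step lost its call without animal 7 (-1.85) or without animal 18 (-2.84). At FR20 the change was -1.92 ± 0.53 and missed the threshold (adjusted p = 0.0738). It passed without animal 13 (-2.55), without FS animal 10 (-1.93) and without the 4 FS animals (-1.92 ± 0.44), which share the estimate of the spread with CPF animals. Leaving out the 4 FS animals took the share of all genes that passed at FR20 in CPF animals from 0.893% to 7.56%. The changes of CXCL10 in the 2 feeding groups were not shown to differ, since the interaction of feeding and time was -1.48 ± 0.65 at FR8 with an adjusted p of 0.999 (95% interval -2.755 to -0.21).

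Markers of several cell types moved over the same times as CXCL10. The summed level of 5 T and NK cell markers (of 9 listed, led by NKG7) had a median of 27.1 CPM in FS animals at B (range 21.6 to 56.4) and 23.4 CPM at FR20 (12.9 to 41.1), with 3 of 5 tested having fallen at FR20 and none risen. The 5 Kupffer cell and macrophage markers with an identifier (of 9, led by CD14) summed to a median of 1505 CPM at B (991 to 2083) and 992 CPM at FR20 (727 to 1251), with 4 of 5 having fallen and 1 risen. The 5 hepatocyte markers (of 7, led by ALB, albumin) summed to a median of 174620 CPM at B (64969 to 202809) and 36683 CPM at FR20 (13611 to 128275). Of these 5, 3 had fallen. Of all genes, 33.8% passed at FR20 in FS animals and 16.4% had fallen. The marker counts were the same without the 4 FS animals, where 44.1% of all genes passed. In bulk tissue fewer cells of a type and less RNA per cell cannot be told apart, and the part of these shifts in the CXCL10 result was not tested.

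**Figure D2:**
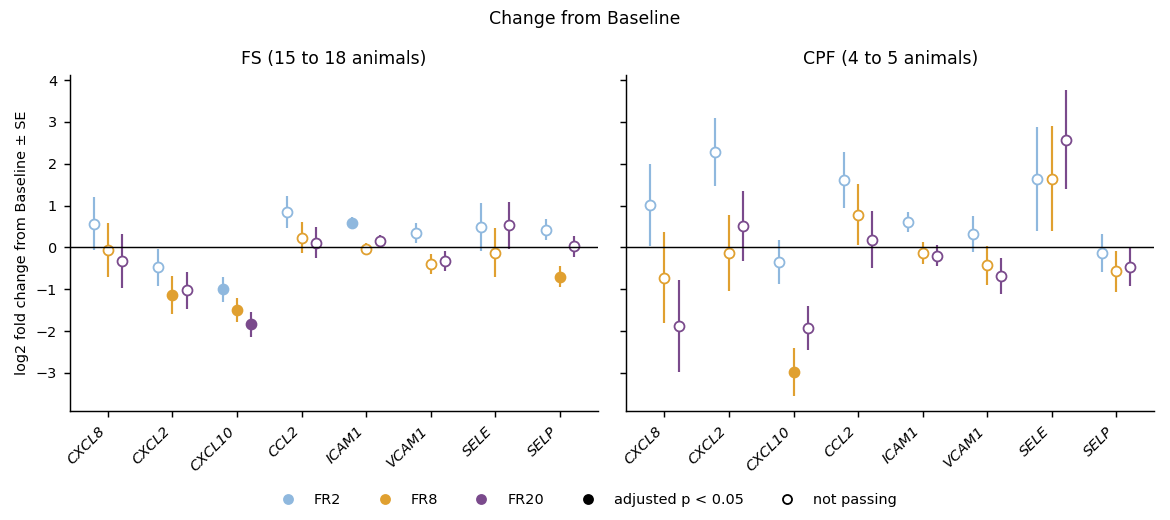
Fitted log2 fold change from Baseline (vertical axis, points with bars of 1 SE) of each gene (horizontal axis) at FR2, FR8 and FR20, for FS animals on the left and CPF animals on the right; filled points passed the adjusted p. CXCL10 lies below 0 at every time in both groups, from -1.0 to -1.84 in FS and from -0.36 to -2.98 in CPF animals, and ICAM1 is the only filled point above 0.

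Over all members, 2 of 8 passed in FS animals at FR2, where 41.4% of all genes passed and 11% were called, and no member was called. These were CXCL10, which fell, and ICAM1, which rose. An unadjusted p under 0.05 was reached by 3 members beside 48.8% of all genes, and DESeq2 passed 3, adding CCL2. At FR8 3 of 8 passed and 2 were called, where 39.3% of all genes passed and 11.8% were called. All 3, CXCL2, CXCL10 and SELP, had fallen, as had 19.5% of all genes. At FR20 1 of 8 passed and was called, where 33.8% of all genes passed and 9.94% were called. The shares of members past the adjusted p were under those of all genes at each time. Without the 4 FS animals 4, 2 and 3 of 8 passed at FR2, FR8 and FR20, where 50.3%, 53.1% and 44.1% of all genes passed. The median log2 fold change over the members was 0.46 at FR2, -0.26 at FR8 and -0.14 at FR20, beside -0.04, -0.00 and 0.04 over all genes tested.

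CXCL8, known as interleukin-8, and CXCL2 are chemokines that bind CXCR2 and draw neutrophils. CXCL8 in FS animals ranged from 0 to 2.38 CPM at B with a median of 0.236, from 0 to 5.04 at FR2 with a median of 0.700, from 0 to 4.41 at FR8 with a median of 0.162, and from 0 to 4.03 at FR20 with a median of 0.198. The ranges overlapped at all times. The fitted change at FR2 was 0.57 ± 0.63 (adjusted p = 0.528), with a higher level in 8 of 15 animals and a lower level in 6. The CPF animals held 0, 0.859, 2.72, 6.11 and 0 CPM at B and 2.58, 4.61, 6.26, 0.852 and 0.752 CPM at FR2. The level was higher in 4 of 5 at FR2 and the fitted change was 1.02 ± 0.97 (adjusted p = 0.646). The 95% intervals reached from -0.67 to 1.8 in FS and from -0.89 to 2.93 in CPF animals, so a rise of several-fold was not excluded. Leaving out 1 animal at a time moved the CPF value between 0.33 (without animal 3) and 2.50 (without animal 13), and the FS value between 0.23 and 0.87. Without the 4 FS animals neither CXCL8 nor SELE passed at any time.

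CXCL2 in FS animals was 0.105 CPM at the lowest, 1.29 at the median and 4.35 at the highest at B, 0.0737, 1.13 and 3.88 at FR2, 0.0843, 0.518 and 3.40 at FR8, and 0, 0.540 and 4.03 at FR20. The ranges overlapped, and 2 of 18 animals at FR8 and 3 of 18 at FR20 were above the Baseline median. CXCL2 fell at FR8 (-1.14 ± 0.45, edgeR adjusted p = 0.0433) and was lower in 10 of 15 animals. This call was lost without any of animals 1, 2, 4, 5, 11, 17, 19, 20 and 22, at values from -0.92 to -1.14, without animal terms (-0.98), and without the 4 FS animals (-1.03 ± 0.45). At FR20 the level was lower in 12 of 15 and the change of -1.03 ± 0.45 missed the threshold (adjusted p = 0.0926), while without the 4 FS animals it passed at -1.51 ± 0.46.

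CXCL2 in CPF animals measured 0, 1.63, 3.84, 0.543 and 0.513 CPM at B and 2.87, 10.8, 15.7, 0.682 and 0.501 CPM at FR2. At FR8 it measured 1.92, 1.02, 0.400 and 1.03 CPM. Animals 7 and 8 at FR2 stood above every FS library of that time, whose highest value was 3.88 CPM. The change at FR2 was 2.28 ± 0.81 and missed the threshold (adjusted p = 0.106), as did the step down from FR2 to FR8 (-2.41 ± 0.84, adjusted p = 0.0853). Both passed without the 4 FS animals (2.24 ± 0.74 and -2.40) and with DESeq2 (2.43 and -2.49). Leaving those animals out takes away no CPF library, and the share of all genes that passed went from 3.41% to 10.8% at FR2. For the step from FR2 to FR8 it went from 7.21% to 20.5%. No member passed in edgeR in CPF animals at FR2, where 3.41% of all genes passed and 2.41% were called, while 3 of 8 had an unadjusted p under 0.05, beside 20% of all genes, and DESeq2 passed 1.

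CXCL8 and CXCL2 lie in the same chemokine cluster in the RefSeq gene order of the Sscrofa11.1 assembly, with 5 genes between them, AMCF-II and PPBP among them. How the counting treated reads shared by such near copies is not given in the sources used here, so their values and those of CXCL2 in particular are uncertain in that respect. CXCL10 lies between CXCL9 and CXCL11 in the same order, with ART3 next to it on the CXCL9 side.

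CCL2, or MCP-1, draws monocytes through the receptor CCR2. In FS animals it was 3.02 CPM at the lowest, 15 at the median and 58.8 at the highest at B, and 6.70, 27.6 and 127 at FR2. It was 3.37, 22.6 and 88.9 CPM at FR8 and 3.63, 17.8 and 129.8 CPM at FR20. The ranges overlapped, 15 of 18 animals at FR2 were above the Baseline median and 5 were above the highest Baseline value. The highest Baseline value and the lowest FR2 value both belonged to animal 10. The fitted change at FR2 was 0.85 ± 0.38 and missed the threshold (adjusted p = 0.0826), with 11 of 15 animals higher. It passed and was called without animal 1 (1.02), without animal 10 (1.06) and without the 4 FS animals (1.19 ± 0.36), and it passed under DESeq2 (0.84).

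CCL2 in CPF animals measured 7.45, 32.1, 62.8, 17.5 and 4.23 CPM at B and 39.6, 109.9, 101, 31.1 and 40.0 CPM at FR2. All 5 animals were higher at FR2, and the groups overlapped, since animals 7 and 8 at B were above animal 13 at FR2. The change was 1.61 ± 0.67 (adjusted p = 0.178) and stayed short of the threshold without the 4 FS animals (1.61 ± 0.60). At FR8 the 4 animals held 36.3, 51.2, 22.3 and 36.2 CPM, each lower than its own FR2 value.

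ICAM1, which binds the leukocyte integrins LFA-1 and Mac-1, rose at FR2 in FS animals and fell again by FR8. It was 22.4 CPM at the lowest, 34.6 at the median and 77.0 at the highest at B, 33.6, 54.0 and 129 at FR2, 28.6, 37.7 and 56.5 at FR8, and 25.4, 39.7 and 74.2 at FR20. At FR2 17 of 18 animals were above the Baseline median, and at FR8 7 of 18 were below the lowest FR2 value. The change at FR2 was 0.58 ± 0.14 (edgeR adjusted p = 5.16e-04), or 1.5-fold, with 12 of 15 animals higher. The step from FR2 to FR8 was -0.61 ± 0.13 (adjusted p = 2.91e-04), with 15 of 18 animals lower. Neither reached the fold change of a call. Without the 4 FS animals they were 0.66 ± 0.13 and -0.69 ± 0.13. At FR8 and FR20 the changes from B were -0.03 ± 0.14 and 0.16 ± 0.14, with 95% intervals from -0.30 to 0.24 and from -0.11 to 0.42, and -0.03 ± 0.13 and 0.03 ± 0.13 without the 4 FS animals.

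ICAM1 in CPF animals measured 23.8, 63.8, 52.8, 41.0 and 27.7 CPM at B and 60.9, 83.1, 92, 41.1 and 47.1 CPM at FR2. All 5 were higher at FR2, animal 13 by the least. The change of 0.62 ± 0.24 was close in size to that of FS animals but missed the threshold (adjusted p = 0.140). The interaction was 0.03 ± 0.28 (95% interval -0.51 to 0.58). From FR2 to FR8 all 4 animals were lower, to 41.6, 57.7, 26.0 and 35.8 CPM (-0.75 ± 0.26, edgeR adjusted p = 0.0629). This step passed without the 4 FS animals and with DESeq2 at -0.75 in both. Without the 4 FS animals 20.5% of all genes passed over this step in CPF animals, against 7.21% with them.

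VCAM1, the partner of the integrin VLA-4 on monocytes and lymphocytes, fell from FR2 to FR8 in FS animals. It was 32.4 CPM at the lowest, 45.8 at the median and 102 at the highest at B, and 15.8, 54.1 and 182 at FR2. It was 23.8, 36.9 and 79.6 CPM at FR8 and 16.8, 44.8 and 109 CPM at FR20. At FR2 4 animals were above and 2 below the whole Baseline range, and 8 of 18 were below it at FR20. No change from B passed (0.34 ± 0.24 at FR2, -0.39 ± 0.24 at FR8 and -0.32 ± 0.24 at FR20), although the change at FR20 did without the 4 FS animals (-0.57 ± 0.23). The step from FR2 to FR8 was -0.73 ± 0.23 (edgeR adjusted p = 0.0143), lower in 15 of 18 animals, and -0.98 ± 0.23 without the 4 FS animals.

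VCAM1 in CPF animals measured 32.7, 275, 116, 23.6 and 32.7 CPM at B and 73.0, 149, 87.1, 61.1 and 76.4 CPM at FR2. Animals 7 and 8, which died, were highest at B and lower at FR2, whereas the 3 that lived were higher at FR2. The fitted change of 0.33 ± 0.43 did not pass (adjusted p = 0.718), and was 0.085 without animal 13 and 0.82 without animal 7.

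SELE, E-selectin, is made by activated endothelium. Its highest value in FS animals was 2.17 CPM at B, 2.27 at FR2, 1.96 at FR8 and 3.26 at FR20, with medians of 0.258, 0.366, 0.231 and 0.422 CPM and a lowest value of 0 at each time. The ranges overlapped and the changes from B were 0.49 ± 0.58, -0.13 ± 0.59 and 0.53 ± 0.57, none of which passed. In the CPF group it measured 0, 0.258, 1.03, 0 and 0.128 CPM at B and 0.340, 0.563, 8.11, 0 and 1.44 CPM at FR20. Animal 8 held the highest value at all 4 times, with 4.93 CPM at FR2 and 1.59 CPM at FR8. The change at FR20 was 2.58 ± 1.19 (adjusted p = 0.240), and in 4 of the 5 Baseline libraries the level came from 3 counts or fewer.

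SELP, P-selectin, is stored in endothelial cells and platelets and brought to the surface on activation. In FS animals it was 1.18 CPM at the lowest, 2.15 at the median and 5.88 at the highest at B, 1.02, 3.51 and 9.26 at FR2, 0.437, 1.59 and 4.51 at FR8, and 1.02, 2.28 and 8.89 at FR20. At FR8 5 of 18 animals were below the whole Baseline range and 5 were below the whole FR2 range. SELP fell at FR8 against B (-0.70 ± 0.26, edgeR adjusted p = 0.0257), lower in 11 of 15 animals, and was called from FR2 to FR8 (-1.12 ± 0.24, adjusted p = 4.46e-04), lower in 16 of 18. Without animal 16 the latter was -0.96, which passed but was under the fold change of a call. Without animal 1 the fall from B was -0.57, and without animal terms it was -0.55, and neither passed. Without the 4 FS animals SELP had risen at FR2 (0.62 ± 0.25, against 0.42 ± 0.25 with them), fallen at FR8 (-0.65 ± 0.26) and been called from FR2 to FR8 (-1.27 ± 0.25).

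From FR8 to FR20 SELP was higher in 14 of 18 FS animals, at 0.73 ± 0.24 (adjusted p = 0.0580), and at 0.55 ± 0.26 without the 4 FS animals (adjusted p = 0.118). In the CPF group it measured 4.15, 3.61, 5.52, 2.99 and 3.08 CPM at B, and 1.19, 3.37, 2.64 and 1.95 CPM at FR8. All 4 were lower at FR8, at -0.57 ± 0.49 (adjusted p = 0.471).

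For the steps between resuscitation times, 3 of 8 members had fallen from FR2 to FR8 in FS animals, ICAM1, VCAM1 and SELP, and 1 was called, where 28.4% of all genes passed, 13.9% had fallen and 5.96% were called. All 8 members had a negative fitted change over this step, and their median was -0.62, against -0.00 over all genes tested. Only ICAM1, VCAM1 and SELP passed, and members were correlated with each other, so the 8 signs are not separate observations. Without the 4 FS animals 4 of 8 passed, where 48.2% of all genes passed, and the added member was CXCL10. From FR8 to FR20 no member passed in edgeR in FS animals, where 6.39% of all genes passed and 1.46% were called, and 1 of 8 (SELP) had an unadjusted p under 0.05, beside 21.7% of all genes, and passed with DESeq2. In CPF animals none of 8 passed from FR8 to FR20 in edgeR, where 0.022% of all genes passed, 0 had an unadjusted p under 0.05, beside 10.9% of all genes, and DESeq2 passed 0. From B to FR20 none of 8 passed in edgeR in CPF animals, where 0.893% of all genes passed and 0.702% were called, 2 had an unadjusted p under 0.05, beside 16.5% of all genes, and DESeq2 passed 1.

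**Figure D3:**
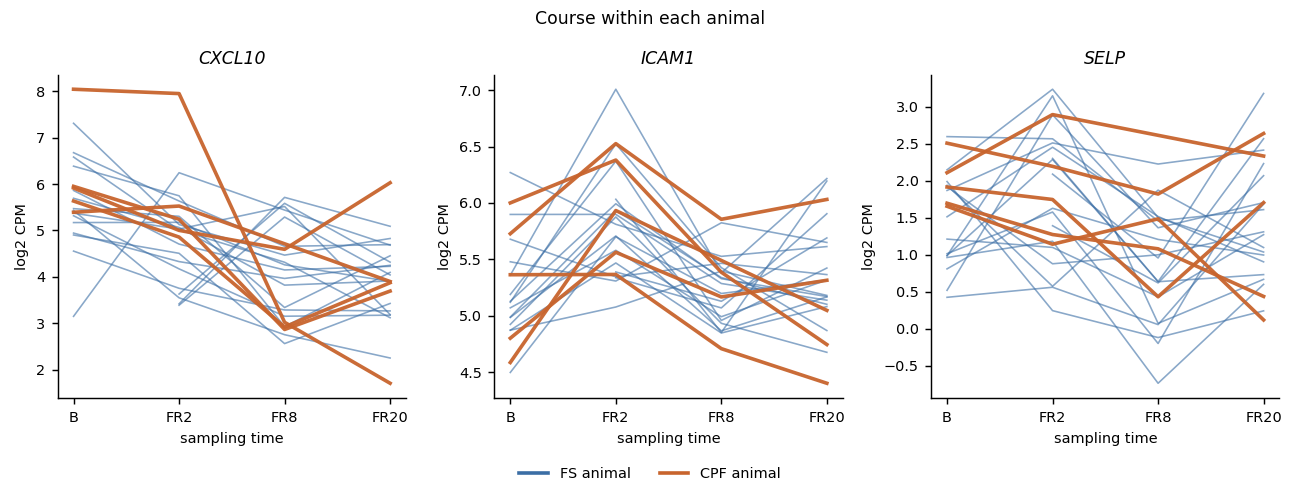
Course of CXCL10, ICAM1 and SELP (log2 CPM, vertical axis) over the sampling times (horizontal axis), with a line for each animal, FS in blue and CPF in orange, that of CPF animal 3 running straight from FR2 to FR20. Most CXCL10 lines descend, most ICAM1 lines rise to FR2 and they come down in 15 of 18 FS and all 4 CPF animals by FR8, and SELP is lower at FR8 than at FR2 in 16 of 18 FS animals.

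Markers of the endothelium were read beside the adhesion molecules. The 5 markers with an identifier (of 10, led by PECAM1) were all above the floor at the median and summed in FS animals to 129 to 289 CPM at B with a median of 221, to 144 to 446 CPM at FR2 with a median of 219, and to 145 to 351 CPM at FR8 with a median of 231. At FR2 1 of 5 had risen and 2 had fallen, where 41.4% of all genes passed. From FR2 to FR8 1 had risen (2 without the 4 FS animals) and none had fallen. Over that step 28.4% of all genes passed (48.2% without the 4 FS animals). In CPF animals the sum was 123 to 257 CPM at B and 257 to 355 CPM at FR8. For SELP, the platelet list had identifiers for 2 of its 7 genes, led by TUBB1, and 1 of these sat at or under the floor at the median. Their sum lay between 0.0936 and 2.81 CPM in FS animals, with medians of 0.517 at B, 1.07 at FR2, 1.17 at FR8 and 0.990 at FR20. Without the 4 FS animals the 1 marker tested had risen from B at FR2, FR8 and FR20. The part of platelets in the SELP values was not tested.

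Several neutrophil markers rose at FR2, when ICAM1 had risen as well. The 8 neutrophil markers with an identifier (of 10, led by S100A9) summed to 0.0949 to 14.8 CPM in FS animals at B with a median of 1.35, and to 4.20 to 54.7 CPM at FR2 with a median of 16.6. The highest Baseline sum and the lowest FR2 sum were those of animal 10. At FR2 4 of 5 markers tested were called higher and none had fallen, where 5.17% of all genes were called higher. At the Baseline median 7 of the 8 sat at or under the floor. At FR8 the sum was 0.550 to 31.6 CPM with a median of 7.42, and 2 markers were called lower than at FR2, as were 3.43% of all genes. The counts of called markers were the same without the 4 FS animals. In CPF animals the sum was 0.532 to 4.30 CPM at B and 14.8 to 96.7 CPM at FR2. The part of these cells in the changes of ICAM1 and in the values of CCL2 was not tested. Of the other lists, the striated muscle markers, led by ACTA1, summed to at most 106 CPM in any used library, and those of cholangiocytes, led by EPCAM, had medians of 19.7, 28.6, 19.4 and 18.1 CPM in FS animals from B to FR20. Erythroid markers, led by HBB, had medians of 255, 244, 120.3 and 109 CPM, and stellate cell markers, led by COL3A1, 942, 517, 473 and 917 CPM.

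Feeding groups were compared at each time on the libraries of that time, the question of the study. No member passed in edgeR at any of the 4 times. At B, 7 of the 8 could be tested, since SELE did not pass the filter there, 2 had an unadjusted p under 0.05, beside 7.66% of all 11688 genes, and 0.0342% of all genes passed and 0.0257% were called. At FR2, FR8 and FR20 3, 0 and 1 of 8 members had an unadjusted p under 0.05, beside 5.58%, 5.17% and 3.25% of all genes, and 0% of all genes passed. DESeq2 passed 0 members at each time, and none passed without the 4 FS animals.

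The widest difference was that of CXCL2 at FR2, higher in CPF animals by 2.27 ± 0.69 on the log2 scale (edgeR adjusted p = 0.706). Of the 5 CPF values, 10.8 and 15.7 CPM lay above all FS libraries, 2.87 CPM lay within their upper range, and 0.682 and 0.501 CPM lay under their median of 1.13 CPM. CXCL10 at FR2 was higher by 1.41 ± 0.46 (adjusted p = 0.773), with 4 of 5 CPF animals above the FS median and only animal 7 above the FS range. Without animal 7 the difference was 0.29. CXCL8 was higher by 1.78 ± 0.88 at B (adjusted p = 0.626), or by 0.73 without animal 13, and by 1.51 ± 0.75 at FR2 (adjusted p = 0.885), and at FR2 all 5 CPF animals were above the FS median of 0.700 CPM. For ICAM1 the differences ran from -0.24 ± 0.23 at FR20 to 0.14 ± 0.25 at FR2, and the 95% interval at FR2 was -0.34 to 0.62.

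The changes from B were also compared between feeding groups directly. None of the 8 passed in edgeR for the interaction at FR2, FR8 or FR20, where 0% of all genes passed, and DESeq2 passed 0. An unadjusted p under 0.05 was reached by 1, 1 and 0 members, beside 2.9%, 3.42% and 3.81% of all genes. None passed without the 4 FS animals either. The member at FR2 was CXCL2, with an interaction of 2.75 ± 0.93 (unadjusted p = 0.00476 and adjusted p = 1 in edgeR). It comes from a change of 2.28 in CPF and -0.48 in FS animals.

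**Figure D4:**
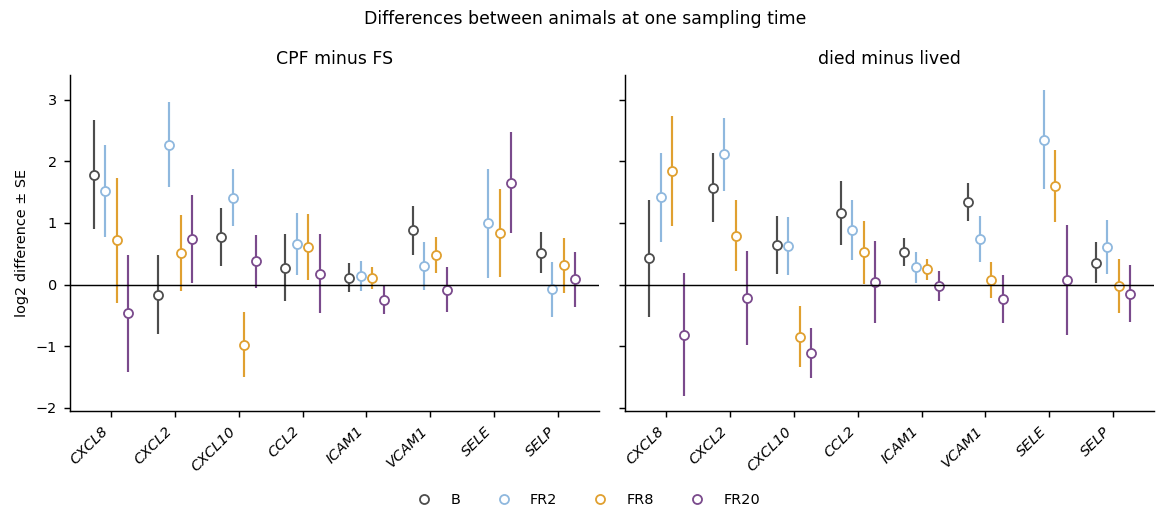
Fitted log2 difference (vertical axis, points with bars of 1 SE) of each gene (horizontal axis) between CPF and FS animals on the left and between animals that died and lived on the right, at each sampling time. No point passed the adjusted p, and the highest values are CXCL2 at FR2 on the left (2.27) and SELE and CXCL2 at FR2 on the right (2.35 and 2.12).

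The animals that died were FS animals 2, 16 and 20 and CPF animals 7 and 8. All of them were still biopsied at FR20, since the study included only animals sampled at every time. Animals that died before the FR20 biopsy are therefore not among them, and the comparison does not cover such deaths. Differences between died and lived were fitted at each time with a term for feeding. No member passed in edgeR at any time, where 0% of all genes passed. An unadjusted p under 0.05 was reached by 4 of 7 members at B, 2 of 8 at FR2, 2 at FR8 and 1 at FR20, beside 8.54%, 5.52%, 2.22% and 5.22% of all genes. DESeq2 passed 1 member at B, VCAM1, and 0 at the other times. None passed in edgeR without the 4 FS animals.

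VCAM1 at B measured 47.7, 56.1 and 102 CPM in FS animals 2, 16 and 20 and 275 and 116 CPM in CPF animals 7 and 8. In the 15 animals that lived it was 23.6 CPM at the lowest, 40.5 at the median and 75.6 at the highest. All 5 that died were above that median and 3 were above all that lived. The difference was 1.34 ± 0.31 (edgeR adjusted p = 0.321). These Baseline biopsies precede the injury. CXCL2 at B was higher in animals that died by 1.57 ± 0.56 (adjusted p = 0.421), CCL2 by 1.16 ± 0.51 (adjusted p = 0.560) and ICAM1 by 0.53 ± 0.22 (adjusted p = 0.525), and none of these passed. Without animal 20 the difference of ICAM1 was 0.29.

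CXCL2 at FR2 measured 2.65, 3.88 and 1.51 CPM in FS animals 2, 16 and 20 and 10.8 and 15.7 CPM in CPF animals 7 and 8. Animals that lived held 0.0737, 0.804 and 2.87 CPM at the lowest, median and highest, so 3 of the 5 that died were above all that lived. The difference was 2.12 ± 0.59 (edgeR adjusted p = 0.601). At FR2 all 5 that died were above the median of those that lived for CXCL8, CXCL2, CCL2, ICAM1, VCAM1 and SELE, and 4 of 5 for CXCL10 and SELP. Such counts, here and for VCAM1 at B, pool the feeding groups, although 3 of 18 FS and 2 of 5 CPF animals died. Members were correlated with each other, so these are not separate observations, and the same counts over all genes were not made. At FR20 none of the 5 was above that median for CXCL10, with 9.45, 14.9 and 8.52 CPM in FS animals 2, 16 and 20 and 3.10 and 12.8 CPM in CPF animals 7 and 8, against 4.59, 17.7 and 65.1 CPM at the lowest, median and highest in those that lived (-1.11 ± 0.40, adjusted p = 0.904). Neutrophil marker sums at FR2 in the animals that died were 12.3, 34.6 and 27.1 CPM (FS) and 96.7 and 29.7 CPM (CPF), and their part in these differences was not tested.

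High values of several members often came from the same animals. Among the 5 CPF animals at B, animal 8 was among the highest 2 for all 8 members and animal 7 for 6, and at FR2 each was among them for 7. Animal 8 was the highest CPF animal for 6 of 8 members at FR8 and at FR20, with CXCL2 and CXCL10 as the exceptions at both times. In FS animals, animal 20, which died, was the highest for 5 members at B. Animals 9, 12 and 19, which lived, were the highest for 3 members at FR2, 4 at FR8 and 3 at FR20, so no single FS animal led throughout.

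Correlations between members describe this over the 88 libraries, which share 23 animals and therefore are not independent. The 21 pairs without CXCL10 had Spearman coefficients of 0.27 to 0.77 with a median of 0.51, and the 7 pairs with CXCL10 had -0.26 to 0.28 with a median of 0.14. The pairs with the highest values were CCL2 with VCAM1 (0.77), CCL2 with ICAM1 (0.74) and CCL2 with CXCL8 (0.72). With the means of feeding group and time removed, these were 0.71, 0.76 and 0.69 as Pearson coefficients.

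**Figure D5:**
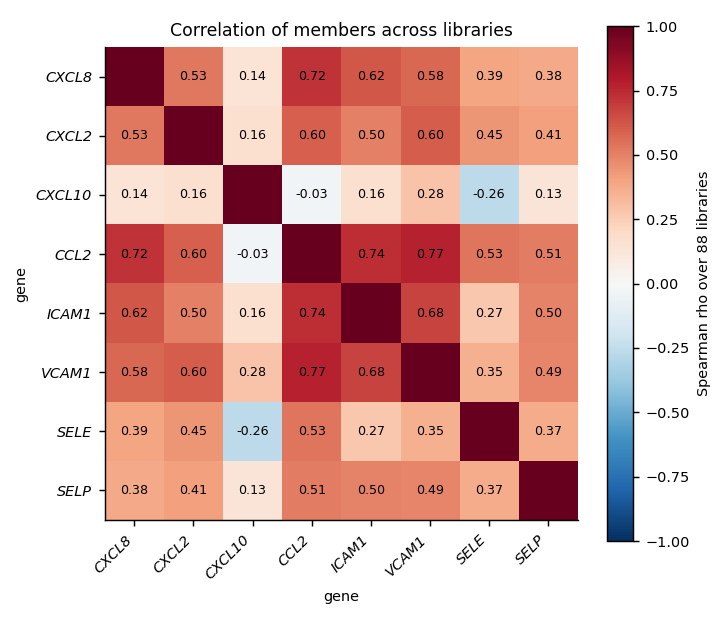
Spearman coefficient over 88 libraries for each of the 28 pairs of members (genes on both axes, colour for the coefficient). The row of CXCL10 is pale, from -0.26 to 0.28, while CCL2, ICAM1, VCAM1 and CXCL8 form a darker block, up to 0.77.

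Among 9690 other genes with a symbol, those whose levels ran closest to each member over the 88 libraries were named, by Spearman coefficient. For CXCL8 this was PTGS2, cyclooxygenase-2 (0.72), and for CXCL2 they were THBS1, thrombospondin-1 (0.67), and NR4A3, an immediate-early nuclear receptor (0.63). For CXCL10 they were ARVCF, a catenin (0.80), and SEC14L3 (0.79). With the means of feeding group and time removed, the latter were 0.58 and 0.55 as Pearson coefficients. For CCL2 they were PLAT, tissue plasminogen activator (0.79), and ADAMTS4, a metalloprotease (0.78).

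For ICAM1 the closest genes were METRNL, a secreted factor (0.76), and GJA1, connexin 43 (0.75), and VCAM1 ran close to NFKBIE, an inhibitor of NF-κB (0.72). For SELE they were PLAU, urokinase (0.55), and CDA, cytidine deaminase (0.52), and for SELP they were VIM, vimentin (0.58), and RASAL1 (0.55). The selectins had the lowest coefficients with their closest genes, and SELE was at or under the floor in 45 of 88 libraries.

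Other genes of the same pathway were taken from lists. Of the 22 changes in FS animals that the naming rule took from these lists, 21 were also called without the 4 FS animals, the exception being FOS at FR8. More of all genes passed without these animals, so this is no independent check. Among 36 further chemokine ligands, 15 had an identifier and 13 were tested. In FS animals 2 rose and 3 fell at FR2, 2 rose and 5 fell at FR8, and 2 rose and 6 fell at FR20, where 41.4%, 39.3% and 33.8% of all genes passed. The counts with the 4 FS animals left out, over 12 tested, were 4 up and 3 down at FR2, 3 up and 5 down at FR8, and 2 up and 6 down at FR20. CXCL11, an interferon-inducible neighbour of CXCL10 that shares its receptor CXCR3, was called lower at all 3 times, at -1.32 ± 0.42, -1.99 ± 0.42 and -1.75 ± 0.42, with Baseline and FR8 medians of 3.02 and 0.667 CPM. Its change at FR8 without the 4 FS animals was -3.13 ± 0.39. CCL22, a ligand of CCR4, was called lower at FR8 and FR20, from a median of 0.911 CPM at B to 0.239 and 0.0790 CPM, levels of a few counts a library, and no fold is given. CCL8, a monocyte chemokine near CCL2 in RefSeq's gene order, fell by 1.82 ± 0.51 at FR2.

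CXCL14, a chemokine made in many resting tissues, was called higher at FR2, FR8 and FR20 (1.43 ± 0.36, 1.24 ± 0.36 and 1.74 ± 0.36), from a median of 4.86 CPM at B to 16.2, 16.5 and 16.6 CPM. CCL27 was called higher at all 3 times as well, but its median was 0 CPM at B and 0.171 CPM at FR20, a few counts a library, and no fold is given. In CPF animals 2 of the ligands fell at FR8 and none rose, where 13.3% of all genes passed and 6.99% fell. Without the 4 FS animals 4 of 12 ligands fell, where 23.1% of all genes passed. CCL5, which draws T cells and monocytes, went from a median of 33.9 to 15.7 CPM at FR8 in CPF animals (-1.02 ± 0.32, edgeR adjusted p = 0.0283).

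Of 22 chemokine receptors, 14 had an identifier and 11 were tested. In FS animals 2 rose and 1 fell at FR2, 2 rose and 1 fell at FR8, and 1 rose and 1 fell at FR20, smaller shares than the 41.4%, 39.3% and 33.8% of all genes. With the 4 FS animals left out 5 rose and 4 fell at FR2, 3 rose and 2 fell at FR8, and 4 rose and 3 fell at FR20, where 50.3%, 53.1% and 44.1% of all genes passed. CCR1, a receptor of monocytes and neutrophils, rose from a median of 5.91 to 17.8 CPM at FR2 (1.60 ± 0.23, edgeR adjusted p = 5.22e-07), in 14 of 15 animals. CXCR6, found on T and NKT cells, fell at FR8 (-1.23 ± 0.29) and at FR20 (-1.67 ± 0.29), and at FR8 in CPF animals (-1.76 ± 0.57). ACKR4, a decoy receptor that removes chemokines, was called higher at FR8 in FS animals (1.19 ± 0.43). CXCR3, the receptor of CXCL10, was -0.74 ± 0.34 at FR20 in FS animals (adjusted p = 0.0813) and -1.81 ± 0.71 at FR8 in CPF animals (adjusted p = 0.0653), and is given here, after its values were seen, because CXCL10 binds it.

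Of 17 further adhesion molecules, 11 had an identifier and 10 were tested, and at FR2 in FS animals 2 rose and 3 fell, beside 41.4% of all genes that passed. CD34, a sialomucin of endothelium and progenitor cells, fell from a median of 8.34 to 4.66 CPM at FR2 (-1.18 ± 0.27), in 15 of 15 animals. In CPF animals at FR8 GLG1, an E-selectin ligand, was called higher (1.34 ± 0.40) and ICAM3, an adhesion molecule of leukocytes, lower (-1.0 ± 0.27). Of 11 leukocyte partners of the members, 8 had an identifier, and ITGAM, the α chain of Mac-1, was called lower at FR2 in FS animals (-1.05 ± 0.23), from a median of 2.28 to 1.06 CPM.

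Among inducing cytokines and their receptors, 11 of 15 had an identifier and 5 were tested. IL1R1, the interleukin-1 receptor, rose at FR2 in FS animals from a median of 644 to 1535 CPM (1.18 ± 0.22, edgeR adjusted p = 2.67e-05), in 14 of 15 animals, and IL6R fell at FR20 (-1.01 ± 0.21). Of 17 transcription factors of induction, 13 had an identifier and 12 were tested. FOSL1, an AP-1 subunit, was called higher at FR2 (1.5 ± 0.33) and FOS, another, lower at FR8 (-1.35 ± 0.49), which without the 4 FS animals was -1.09 ± 0.51 and did not pass (adjusted p = 0.104). Over the step from FR2 to FR8, over which ICAM1, VCAM1 and SELP fell, 6 of the 12 factors fell and 1 rose, where 13.9% of all genes fell and 28.4% passed. Leaving out the 4 FS animals, 7 fell and 2 rose, where 48.2% of all genes passed. NFKBIA, an inhibitor of NF-κB that is itself an NF-κB target, was called lower in CPF animals at FR8 (-1.23 ± 0.33) and at FR20 (-1.32 ± 0.31).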

How the data were processed

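Per the labels and the study's methods, liver biopsies were flash frozen and made into TruSeq RNA libraries, 1 per animal and time. The submitters' processing notes name CASAVA 1.8.2, TopHat 1.5.0, SAMtools, HTSeq and edgeR 3.2.4 with the build Sscrofa10.2. The authors deposited raw counts per pig Ensembl gene. How HTSeq was set for strand and overlaps is not given in the sources used here. Symbols came from a gene name table (11804 identifiers) and, for 699 more, CXCL10 and SELE among them, from the study's tables.

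The software was R 4.3.3 with limma 3.58.1, edgeR 4.0.16 and, as an alternative, DESeq2 1.42.0. Python 3.11.15 with pandas 2.3.3, numpy 2.4.6 and matplotlib 3.10.9 gave the tables and figures. A gene was tested where its CPM summed to 10 or more over the libraries of the fit, with TMM scaling and edgeR's 2-sided quasi-likelihood F test. The fit of changes held 88 libraries, 23 animal terms and terms for FR2, FR8 and FR20 in FS and in CPF. CPF against FS, and died against lived with a term for feeding, were fitted within each time. Intervals of 95% are normal intervals from the SE. Correlations used log2 CPM with a prior count of 2. The tests were checked on simulated counts.

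The animal number pairs libraries of the same animal. After group and time were removed, 126 same-animal pairs had a median correlation of 0.24 (100 over 0.1) and 2391 other pairs of a feeding group -0.03 (520 over 0.1). No libraries were identical. The labels give no sequencing batch.

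The members and lists were chosen with earlier results of these data known. Named genes are the 8 members, the called genes of each list with the smallest adjusted p in each FS change (up to 2 in each direction) and CPF change (up to 1), the 2 genes closest to each member, albumin and the most abundant gene of each marker list. As alternatives, TMM was replaced by RLE, the filter by 3 CPM in sum or filterByExpr, and edgeR by DESeq2's Wald test. The fold threshold was dropped, 91 libraries were used, animal terms were left out, levels were put on each library's own total, and Pearson replaced Spearman. Each animal was left out in turn (in comparisons between animals, those of the smaller group), keeping the dispersion trend of the full fit. Leaving out FS animals 10, 17, 19 and 21 was chosen after seeing the data. Sequences of the members were not used here. One of the genes closest to CXCL8 and to VCAM1 is not reported here.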

Additional observations from a re-analysis of the deposited data

Results flagged for a closer look

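Among 32 groups of 4 or 5 CPF libraries (8 genes at 4 times), 10 had 1 animal far from the others by Dixon's test on CPM. The test assumes normal values, which CPM resting on few counts or skewed upward need not follow. No number of such groups expected by chance is therefore given. CXCL10 was far higher in animal 7 at B (264 CPM) and at FR2 (247 CPM), and in animal 13 at FR8 (24.0 CPM) and at FR20 (65.1 CPM). Animal 8 stood apart for SELE at B (1.03 CPM), FR2 (4.93 CPM) and FR20 (8.11 CPM), for CXCL8 at FR8 (2.67 CPM), and at FR20 for CCL2 (86.4 CPM) and VCAM1 (76.4 CPM). The groups of CPF animals share these animals across genes and times, so the 10 results are not independent.

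The 3 FS Baseline libraries nearly without albumin enter only the alternative with 91 libraries. They held members above the highest of the used Baseline libraries, in CPM of each library's own total. CXCL2 measured 6.20, 5.81 and 5.93 CPM in animals 17, 19 and 21, against at most 3.71 CPM in the used libraries. SELP measured 17, 11.3 and 12.1 CPM in the same animals, against at most 5.34 CPM. CCL2 measured 118 CPM in animal 17 and 264 CPM in animal 21, against at most 65.1 CPM. SELE measured 12.5 CPM in animal 17 and 7.30 CPM in animal 21, against at most 2.35 CPM, and CXCL8 measured 7.55 CPM in animal 21, against at most 5.33 CPM. Markers of striated muscle summed to between 28097 and 36427 CPM in these libraries, and their part in these values was not tested.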

How the results depend on the processing

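Of the 21 counts of members called, 13 stayed within 1.5 times under every alternative run and 8 did not. In FS animals at FR2 the count of 0 became 1 with RLE size factors, filterByExpr, DESeq2 or the 4 FS animals left out, and 2 with the adjusted p alone. At FR8 the count of 2 became 1 without the 4 FS animals, and at FR20 the count of 1 became 2 with DESeq2, 91 libraries or the 4 FS animals left out. From FR2 to FR8 in FS animals 1 became 3 with the adjusted p alone. In CPF animals 0 became 1 at FR2 and at FR20 with DESeq2 or the 4 FS animals left out, and from FR2 to FR8 1 became 2 with the same alternatives and 0 with 91 libraries. Died against lived at B went from 0 to 1 with DESeq2. Leaving out each animal in turn, the counts ranged from 0 to 2 (FS, FR2), 1 to 2 (FS, FR8), 1 to 2 (FS, FR20), 0 to 1 (CPF, FR20), and 0 to 1 from FR2 to FR8 in FS and in CPF animals. The causes were not tested, except that the adjusted p alone drops the fold threshold.

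Without animal terms (no replicate block) the count in FS animals at FR8 went from 2 to 1, since CXCL2 no longer passed, and SELP lost its adjusted p there too. The block by animal moved no other count by over 1.5 times.

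Of the log2 fold changes, 8 changed sign, none of which passed a threshold, and changes of sign within 1 SE of 0 were counted as no direction. With 91 libraries SELP at B went to -0.082 for CPF against FS and to -0.10 for died against lived. With each animal left out in turn, CPF against FS at B ran from -0.075 (without animal 7) to 0.95 for CXCL10 and from -0.032 (without 7) to 1.13 for VCAM1, and for SELE from -1.23 (without 8) to 1.32 at FR2 and from -0.12 (without 8) to 1.98 at FR20. Died against lived at FR2 ran from -0.13 (without 7) to 1.02 for CXCL10, and the interaction of CXCL8 at FR20 from -2.52 to 0.027 (without 13). All 64 group medians moved by less than 1 SD on each library's own total. CXCL8 and SELE, at or under 3 counts in 42 and 45 of 88 libraries, rest on few reads in many animals, and 5 CPF animals limit every comparison with that group.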
